A study of Homo sapiens with 20 samples.

Results

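The genes described here are 57 genes of mitosis and cytokinesis, the steps in which a cell divides its chromosomes and then itself. They were chosen by symbol from a fixed list, and all 57 were found among the 21201 symbols of the expression table. RNA was sequenced from 5 established human tumor cell lines after 24 h with the tankyrase inhibitor G007-LK, to ask how the lines respond to TNKS1/2 inhibition (TNKSi). In each line, 2 libraries came from cells given 1 µM G007-LK and 2 from cells given 0.01% DMSO, the solvent control, which makes 20 libraries. Of the lines, ABC-1 came from lung, OVCAR-4 from ovary, UO-31 from kidney and COLO 320DM from colon, all TNKSi-sensitive, and RKO, also from colon, was the TNKSi-insensitive control. ABC-1 and RKO were grown in EMEM and the other 3 lines in RPMI-1640, so the medium and the line cannot be told apart where RKO is compared with COLO 320DM, OVCAR-4 or UO-31, while ABC-1 and RKO shared a medium. Each line stands for 1 tumor. Values are RPKM, reads scaled by gene length and by the mapped reads of the library, so levels of different genes are compared per length. No read counts were given, so the depth is unknown and no counting error could be computed.

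Mitotic genes are transcribed late in the cell cycle, in G2 and M phase. In resting cells and in G1 phase many of them are held down by the DREAM complex, which is built on the MuvB core and contacts the DNA through cell cycle genes homology region (CHR) elements in their promoters. As cells move toward mitosis, MuvB pairs instead with B-MYB (encoded by MYBL2) and then with FOXM1, and the same promoters become active. Their RNA is therefore often read as a measure of how many cells of a culture are dividing. In bulk RNA, fewer cells in G2 and M phase and less RNA per such cell cannot be told apart.

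The promoters of the genes show what they share in sequence, a property that took no part in their choice. A window of 250 bases before to 50 bases after the transcription start was found in RefSeq (GRCh38.p14) for 48 of the 57. The canonical CHR element is spelled TTTGAA. On either strand of the window, TTTGAA was found in 33 of 48 genes (68.75%), against 18.17% of all 27305 genes with a window of this length. Within 60 bases before to 50 bases after the start it was found in 30 of 48 (62.5%), against 6.263% of all genes. Among DNA replication genes, which are also cell cycle genes but of S phase, 1 of 39 (2.564%) held it in the window and 0 of 39 near the start. Among 70 other mitosis genes it was found in 30 of the 59 with a window (50.85%) and near the start in 22 (37.29%), so the element is not particular to the 57. A CCAAT box, on either strand, was found in 38 of 48 (79.17%), against 39.72% of all genes and 24 of 39 replication genes (61.54%). A match of letters is a description and does not show that a protein binds there. The stretches below are the 100 bases before the start in 9 genes, from every role except the transcription factors, each with TTTGAA in capitals, 5′ to 3′ on the strand of the gene. They were picked among genes with the element within 60 bases before the start, and in others it lies farther away, as in ASPM (position -113 from the start) and TOP2A (positions -194 and -151).
PLK1 (chr16:23678789-23678888, plus strand): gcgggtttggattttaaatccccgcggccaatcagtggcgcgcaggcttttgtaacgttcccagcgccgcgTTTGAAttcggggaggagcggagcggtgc
CDCA8 (chr1:37692416-37692515, plus strand): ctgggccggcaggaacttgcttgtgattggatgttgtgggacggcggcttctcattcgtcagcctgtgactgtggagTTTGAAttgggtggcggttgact
BUB1B (chr15:40160969-40161068, plus strand): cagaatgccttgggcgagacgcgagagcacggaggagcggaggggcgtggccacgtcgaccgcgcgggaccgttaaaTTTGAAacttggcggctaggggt
ESPL1 (chr12:53268199-53268298, plus strand): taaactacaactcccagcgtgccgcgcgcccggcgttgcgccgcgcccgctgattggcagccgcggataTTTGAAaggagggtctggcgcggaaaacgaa
CENPA (chr2:26785956-26786055, plus strand): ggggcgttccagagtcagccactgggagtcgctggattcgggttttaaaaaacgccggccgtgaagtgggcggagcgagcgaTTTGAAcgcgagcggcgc
KIF23 (chr15:69414249-69414348, plus strand): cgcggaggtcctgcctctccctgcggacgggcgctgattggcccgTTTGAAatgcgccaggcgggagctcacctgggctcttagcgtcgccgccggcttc
PRC1 (chr15:90994536-90994635, minus strand): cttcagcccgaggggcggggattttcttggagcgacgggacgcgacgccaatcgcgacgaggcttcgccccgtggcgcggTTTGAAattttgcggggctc
HMMR (chr5:163460532-163460631, plus strand): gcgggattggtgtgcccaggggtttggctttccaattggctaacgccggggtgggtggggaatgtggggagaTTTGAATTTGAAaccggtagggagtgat
NCAPG (chr4:17810879-17810978, plus strand): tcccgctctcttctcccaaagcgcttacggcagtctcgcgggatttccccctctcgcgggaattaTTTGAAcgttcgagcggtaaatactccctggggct

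The first base of the element lies at position -18 from the start in CENPA, -20 in PRC1 and -55 in KIF23, and HMMR carries it as a direct repeat. In PLK1, PRC1 and HMMR a ccaat, and in CDCA8, ESPL1, KIF23 and HMMR its reverse complement attgg, lies upstream of the element in the printed stretch. The change with G007-LK, described below by line, was also set beside the element. In ABC-1 the median log2 change was -1.09 over the 33 genes with the element and -1.08 over the 15 without it, and in UO-31 it was -1.04 and -1.06. In COLO 320DM the values were -0.06 and -0.25, and in OVCAR-4 -0.37 and -0.27.

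The 57 genes were, in their geometric mean, lower with G007-LK in ABC-1, UO-31 and OVCAR-4. The mean in ABC-1 was 34.3 and 37.9 RPKM in the DMSO libraries and 16.8 and 16.3 RPKM in the G007-LK libraries. In UO-31 it was 29.1 and 29.4 RPKM against 16.4 and 12.3 RPKM. In OVCAR-4 it was 83.3 and 84.6 RPKM against 64.9 and 65.2 RPKM. In each of these 3 lines both treated libraries were below both controls, and relative to the controls the gap was wider in ABC-1 and UO-31 than in OVCAR-4. In COLO 320DM the means overlapped, with 25.9 and 30.1 RPKM in DMSO and 26.4 and 24.2 RPKM with G007-LK. In RKO they did not overlap but lay close together, at 29.1 and 29.4 RPKM in DMSO and 27.5 and 27.4 RPKM with G007-LK.

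**Figure D1:**
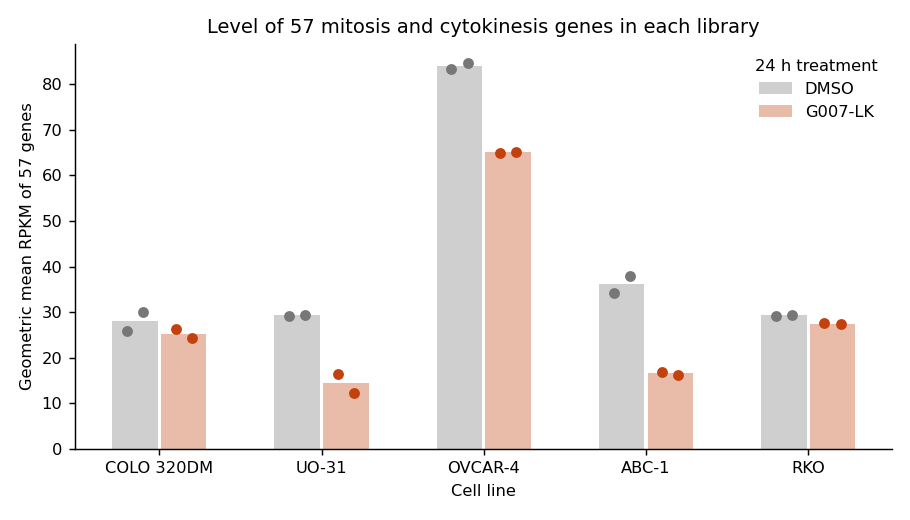
Geometric mean RPKM of the 57 genes (y axis) in each library, by cell line (x axis), with bars at the mean of the 2 libraries of a group and points for each library. The G007-LK libraries of ABC-1 (16.8 and 16.3) and UO-31 (16.4 and 12.3) lie far below their controls, while those of COLO 320DM and RKO lie near them.

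Gene by gene, all 57 had a mean of at least 1 RPKM in every line and were tested there, on log2(RPKM + 0.5) with limma and Benjamini-Hochberg adjustment over all genes of the line. A gene is called where the adjusted p is under 0.05, and log2 changes are G007-LK minus DMSO. All 57 genes fell in each of ABC-1, OVCAR-4 and UO-31, with no member called higher in any line. Of all genes tested, 41.2% were called lower in ABC-1, 8.63% in UO-31 and 39% in OVCAR-4. In COLO 320DM 11 of the 57 fell, where 11.6% of all genes did, and in RKO 12 of the 57 fell, where 2.75% of all genes did. The 57 had a median log2 change of -1.08 in ABC-1 (all genes -0.14), -0.35 in OVCAR-4 (all genes -0.11), -1.04 in UO-31 (all genes -0.04), -0.12 in COLO 320DM (all genes -0.01) and -0.09 in RKO (all genes -0.02). In ABC-1 the mean with G007-LK ran from 33.2% (KIF23) to 59.7% (NEK2) of the DMSO mean, in UO-31 from 38.5% (ESPL1) to 72.5% (BUB3), and in OVCAR-4 from 63.2% (KIF14) to 91.7% (MYBL2). Both G007-LK libraries lay below both DMSO libraries for 57 genes in ABC-1 (52.5% of all genes), 57 in OVCAR-4 (54.6%), 57 in UO-31 (30.3%), 47 in RKO (35.2%) and 26 in COLO 320DM (31.7%). Calls in either direction took 57.9% of all genes for ABC-1, 51.5% for OVCAR-4, 19.3% for COLO 320DM, 13.4% for UO-31 and 4.11% for RKO, while for the 57 genes they were the falls already given. Among the 57 the largest adjusted p by limma was 5.2e-10 in ABC-1, 0.0065 in OVCAR-4 and 0.013 in UO-31.

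Because the typical gene also shifted in some lines, each result was recomputed after the libraries were rescaled to a common median ratio. Then 57 genes fell in ABC-1 (median -0.92, 32.4% of all genes called lower) and 57 in UO-31 (median -0.999, 15.5% of all genes). In OVCAR-4 51 fell (median -0.24, 23% of all genes), with CENPM, TACC3, CDC25C, SPC24, CDCA5 and MYBL2 not called. The count rose to 19 in COLO 320DM (20.2% of all genes) and dropped to 8 in RKO (1.06% of all genes). Over all genes, replicate 2 minus replicate 1 in UO-31 had a median of -0.03 log2 units in DMSO and -0.29 with G007-LK. For the 57 genes these medians were 0.006 and -0.40. Most UO-31 calls were lost without either DMSO library, and only PLK1, CDC20, UBE2S, ANLN and TPX2 held both times. None was lost without either G007-LK library. When a DMSO library is left out, the spread within groups comes from the G007-LK libraries alone. The median of the 57 in UO-31 ran from -1.21 to -0.85 when each library was left out in turn. In COLO 320DM the count was 22 without DMSO replicate 1, 11 without DMSO replicate 2 (with 1 gene called higher), and 3 or 1 when the first or the second G007-LK library was left out. In RKO it was 3 to 5 without any 1 library, and CDC20, PTTG1 and KIF2C held throughout.

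**Figure D2:**
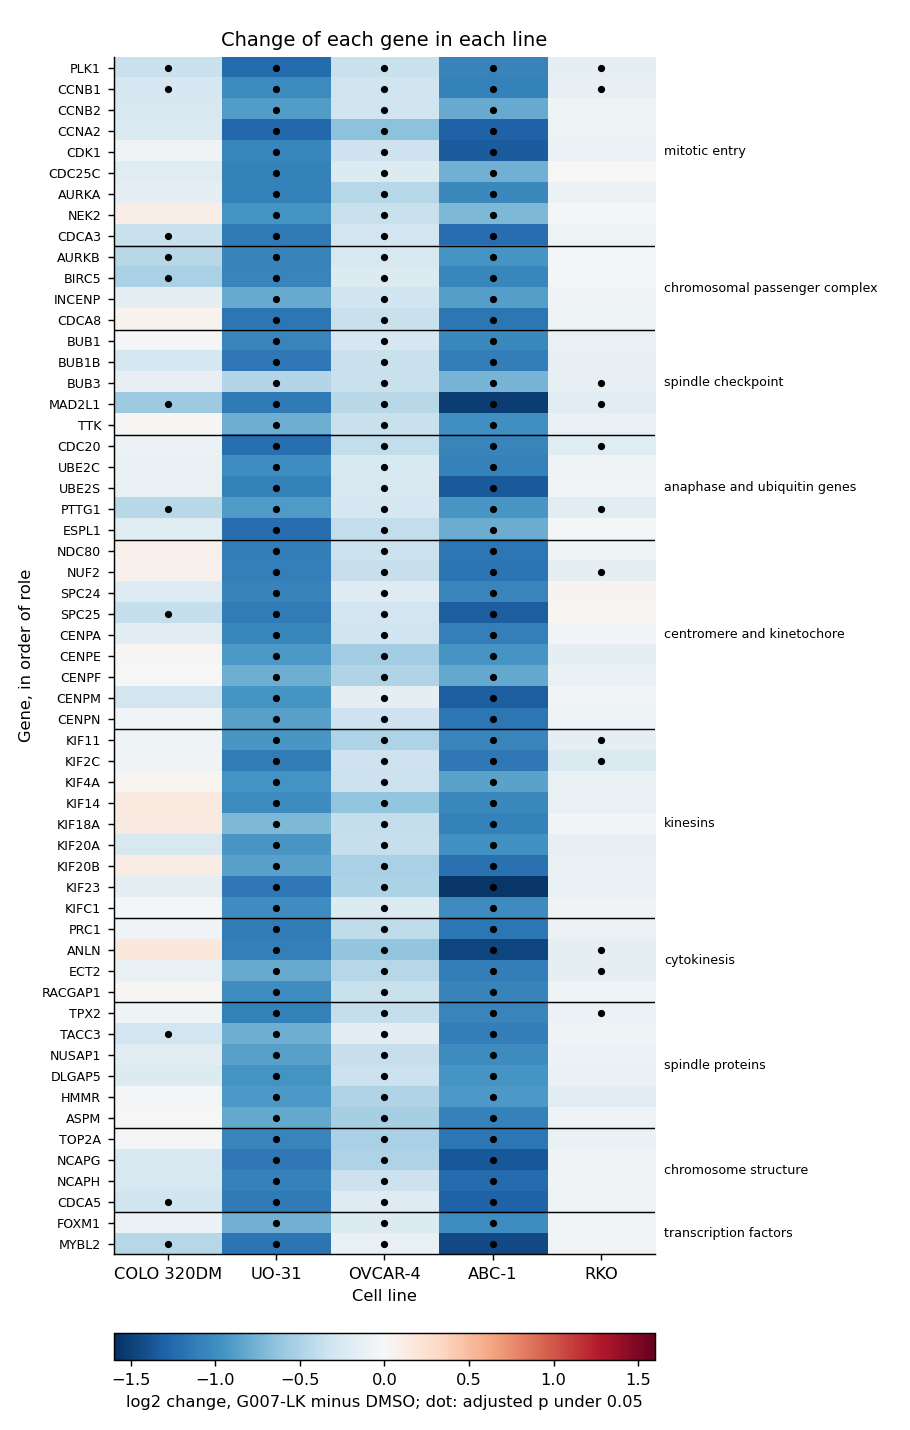
Log2 change (color, G007-LK minus DMSO, RPKM as deposited) of each of the 57 genes (rows, grouped by role) in each line (columns), with a dot where the adjusted p is under 0.05. ABC-1, UO-31 and OVCAR-4 are dotted and blue throughout, while COLO 320DM has 11 dots and RKO 12, all in genes that fell.

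Entry into mitosis is driven by cyclin B with CDK1, switched on by the CDC25C phosphatase and helped by the kinases PLK1, AURKA and NEK2. All 9 genes of this group fell in ABC-1, UO-31 and OVCAR-4, against 3 of 9 in COLO 320DM (PLK1, CCNB1 and CDCA3) and 2 of 9 in RKO (PLK1 and CCNB1). PLK1 (GRCh37 chr16:23688977-23701688, plus strand) measured 71.4 and 75.2 RPKM in DMSO and 34.2 and 35.1 RPKM with G007-LK in ABC-1, and 109 and 113 against 51.4 and 42.8 RPKM in UO-31. In OVCAR-4 it measured 229 and 233 against 171 and 189 RPKM, in COLO 320DM 106 and 115 against 86.9 and 86.0 RPKM, and in RKO 69.9 and 71.0 against 63.2 and 64.7 RPKM. The treated libraries lay below the controls in every line, by the most in UO-31, where the log2 change was -1.23 ± 0.14 (SE), and by the least in RKO, where it was -0.14 ± 0.03 (SE). CCNB1, which encodes cyclin B1, was also lower in both treated libraries of every line, in ABC-1 (108 and 113 against 51.8 and 52.3 RPKM), UO-31 (98.0 and 107 against 55.8 and 45.1 RPKM), OVCAR-4 (188 and 191 against 149 and 155 RPKM), COLO 320DM (72.3 and 83.1 against 65.9 and 62.4 RPKM) and RKO (93.5 and 94.7 against 86.4 and 86.0 RPKM). In RKO the calls of PLK1 and CCNB1 were each lost without any 1 of the 4 libraries. CDK1, its catalytic partner, was not called in COLO 320DM, where its groups overlapped (57.3 and 66.6 against 62.7 and 56.6 RPKM). It fell in ABC-1 from 105 and 123 to 45.5 and 44.7 RPKM, in UO-31 from 57.6 and 56.9 to 31.4 and 24.1 RPKM, and in OVCAR-4 from 225 and 228 to 184 and 175 RPKM. In RKO CDK1 measured 63.8 and 64.8 against 59.8 and 60.6 RPKM (adjusted p = 0.07 by limma, not called). CCNA2, encoding cyclin A2 of S phase and early mitosis, had the largest fall among the 57 on the log2(RPKM + 0.5) scale in both UO-31 (log2 change -1.25 ± 0.18, SE) and OVCAR-4 (-0.65 ± 0.04, SE), while in RKO its change was -0.08 ± 0.03 (SE). As a percent of DMSO, ESPL1 in UO-31 (38.5% against 41.6% for CCNA2) and KIF14 in OVCAR-4 (63.2% against 63.5%) were lower. In OVCAR-4 CCNA2 measured 81.6 and 83.8 RPKM in DMSO and 52.1 and 52.9 RPKM with G007-LK.

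The chromosomal passenger complex, made of the kinase AURKB with BIRC5 (survivin), INCENP and CDCA8 (borealin), corrects faulty attachment of chromosomes to the spindle. All 4 genes fell in ABC-1, UO-31 and OVCAR-4 and none was called in RKO, and AURKB and BIRC5 fell in COLO 320DM. AURKB measured 62.2 and 63.5 RPKM in DMSO and 46.3 and 45.5 RPKM with G007-LK in COLO 320DM, where its log2 change was -0.45 ± 0.09 (SE). It measured 52.4 and 52.9 against 25.6 and 28.8 RPKM in ABC-1, 40.4 and 40.2 against 20.03 and 18.1 RPKM in UO-31, 89.0 and 92.3 against 75.8 and 76.3 RPKM in OVCAR-4, and 65.3 and 72.2 against 67.8 and 68.0 RPKM in RKO, where the groups overlapped. BIRC5 in COLO 320DM measured 84.2 and 89.1 against 62.4 and 58.6 RPKM (log2 change -0.51 ± 0.09, SE). In ABC-1 it went from 56.7 and 59.1 to 27.8 and 28.0 RPKM, in UO-31 from 53.0 and 55.7 to 28.0 and 23.7 RPKM, and in OVCAR-4 from 198 and 196 to 168 and 171 RPKM. In RKO BIRC5 stayed within a narrow range, 40.6 and 40.8 against 39.4 and 40.2 RPKM, and was not called. INCENP and CDCA8, the other two subunits, had estimates of -0.16 and 0.06 in COLO 320DM, neither called, so the 4 subunits of the complex did not have the same call there.

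The spindle checkpoint delays anaphase until every chromosome is attached. MAD2L1 (GRCh37 chr4:120976778-120988013, minus strand), which encodes the MAD2 protein that blocks CDC20, was called in all 5 lines. It measured 46.5 and 48.9 RPKM in DMSO and 16.6 and 16.1 RPKM with G007-LK in ABC-1, and 46.8 and 47.0 against 24.9 and 17.9 RPKM in UO-31. In COLO 320DM its values were 70.2 and 83.4 against 53.8 and 47.9 RPKM, in OVCAR-4 111 and 114 against 84.1 and 80.4 RPKM, and in RKO 88.8 and 92.1 against 79.0 and 80.8 RPKM. Its log2 change in COLO 320DM, -0.59 ± 0.10 (SE), was the largest fall of the 57 there, and it was the only one of the 11 calls that held without each library in turn. BUB1, a checkpoint kinase of the kinetochore, fell in ABC-1 (25.7 and 29.8 against 14.2 and 12.5 RPKM), UO-31 (26.3 and 26.8 against 14.4 and 10.9 RPKM) and OVCAR-4 (106 and 105 against 87.5 and 87.5 RPKM). Its groups overlapped in COLO 320DM (27.1 and 34.0 against 30.8 and 28.5 RPKM), and in RKO (43.1 and 44.03 against 40.6 and 39.3 RPKM) it lay at the threshold, not called. BUB3, its partner, had the smallest fall of the 57 in UO-31, from 63.5 and 60.7 to 51.4 and 38.7 RPKM (log2 change -0.47 ± 0.15, SE). In RKO BUB3 was among the 12 called, from 128 and 129.6 to 117 and 117 RPKM.

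Anaphase starts when the anaphase-promoting complex with CDC20, fed by the ubiquitin carriers UBE2C and UBE2S, degrades securin (PTTG1) and sets free separase (ESPL1). CDC20 fell in UO-31 from 127 and 137 to 60.7 and 53.4 RPKM, in ABC-1 from 123 and 134 to 61.4 and 61.7 RPKM, and in OVCAR-4 from 457 and 447 to 339 and 350.4 RPKM. In RKO it fell from 123 and 125 to 108 and 109 RPKM (log2 change -0.19 ± 0.02, SE), and this call held without each library in turn. In COLO 320DM its values were 67.9 and 73.1 against 66.9 and 64.9 RPKM, not called. PTTG1 was called in all 5 lines. It measured 79.7 and 79.3 against 60.8 and 55.6 RPKM in COLO 320DM, 105 and 108 against 58.7 and 54.7 RPKM in UO-31, 495 and 495 against 414 and 406 RPKM in OVCAR-4, 98.7 and 98.3 against 49.9 and 52.9 RPKM in ABC-1, and 98.2 and 99.1 against 86.9 and 88.2 RPKM in RKO. PTTG1, UBE2C, UBE2S and KIF4A have near-identical copies elsewhere in the genome, and how the authors' counting treated reads that match several copies is not stated in the sources, so their levels are uncertain to that extent. ESPL1 had the third largest fall in UO-31 on the log2(RPKM + 0.5) scale and the lowest percent of DMSO, from 5.56 and 6.001 to 2.61 and 1.85 RPKM. In RKO it read 9.91 and 9.77 against 9.89 and 9.44 RPKM, with overlapping groups.

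The kinetochore joins each centromere to the spindle. All 9 genes of this group fell in ABC-1, UO-31 and OVCAR-4, against 1 in COLO 320DM (SPC25) and 1 in RKO (NUF2). CENPA, the histone H3 variant that marks centromeres, measured 42.8 and 45.1 against 20.6 and 20.2 RPKM in ABC-1, 15.9 and 16.4 against 8.80 and 6.56 RPKM in UO-31 and 60.2 and 61.9 against 48.8 and 49.2 RPKM in OVCAR-4. It was not called in COLO 320DM (25.4 and 28.4 against 23.3 and 24.1 RPKM) or in RKO (15.8 and 15.2 against 15.2 and 14.8 RPKM). CENPF, a large protein of the outer kinetochore, is a case in which the COLO 320DM replicates disagreed. Its 4 values there were 21.1 and 27.3 RPKM in DMSO and 27.6 and 20.8 RPKM with G007-LK. In RKO CENPF measured 26.7 and 26.0 against 24.5 and 24.5 RPKM, in UO-31 16.7 and 17.4 against 12.1 and 7.70 RPKM, in OVCAR-4 39.7 and 40.6 against 28.4 and 28.5 RPKM, and in ABC-1 21.8 and 25.8 against 13.9 and 12.6 RPKM. SPC25, of the same NDC80 complex as NDC80, NUF2 and SPC24, measured 24.2 and 24.7 against 19.9 and 17.4 RPKM in COLO 320DM, where the other three subunits had estimates of 0.08, 0.07 and -0.20 and were not called.

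Kinesins move chromosomes and shape the spindle. All 9 fell in ABC-1, UO-31 and OVCAR-4, none was called in COLO 320DM, and KIF11 and KIF2C were called in RKO. KIF23 (GRCh37 chr15:69706585-69740766, plus strand), which bundles the microtubules between the parting chromosomes, had the largest fall of all in ABC-1, from 41.7 and 45.0 to 15.4 and 13.4 RPKM (log2 change -1.56 ± 0.09, SE). It measured 27.0 and 26.9 against 14.05 and 10.1 RPKM in UO-31 and 26.4 and 27.3 against 25.5 and 24.0 RPKM in RKO. KIF11, the motor that pushes the spindle poles apart, fell in ABC-1 (29.7 and 35.6 against 15.8 and 14.9 RPKM), UO-31 (16.4 and 16.8 against 10.7 and 6.71 RPKM) and OVCAR-4 (76.8 and 79.6 against 56.8 and 54.2 RPKM). In RKO it went from 35.6 and 36.1 to 33.0 and 31.9 RPKM, a call that was lost without any 1 of the 4 libraries, and in COLO 320DM it read 16.1 and 20.7 against 18.3 and 16.6 RPKM. KIF20A, needed for cytokinesis, read 32.7 and 37.9 against 17.7 and 17.95 RPKM in ABC-1, 35.0 and 39.0 against 22.0 and 16.6 RPKM in UO-31, 142 and 139 against 108 and 109 RPKM in OVCAR-4, 17.9 and 20.7 against 16.5 and 15.4 RPKM in COLO 320DM and 13.4 and 13.9 against 12.4 and 12.5 RPKM in RKO. It was not called in COLO 320DM or RKO, although the groups did not overlap there. KIF2C, which takes apart microtubules at kinetochores, had the largest fall of the 57 in RKO, from 43.5 and 42.1 to 36.6 and 36.3 RPKM (log2 change -0.23 ± 0.03, SE). KIF14, which works at the midbody, was among the 3 largest falls in OVCAR-4, from 13.7 and 15.5 to 9.26 and 9.18 RPKM.

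Cytokinesis needs PRC1 at the central spindle, RACGAP1 and ECT2 to place the furrow, and ANLN (anillin) to build the contractile ring. All 4 fell in ABC-1, UO-31 and OVCAR-4, none was called in COLO 320DM, and ANLN and ECT2 were called in RKO. ANLN (GRCh37 chr7:36429430-36493400, plus strand) measured 174 and 205 against 71.1 and 64.2 RPKM in ABC-1, where it was the third largest fall, and 242 and 253 against 162 and 157 RPKM in OVCAR-4, where it was the third largest as well. In UO-31 it measured 96.2 and 95.5 against 56.0 and 35.3 RPKM, and in RKO 50.5 and 50.7 against 45.5 and 45.9 RPKM. COLO 320DM held little of it, 8.40 and 11.9 RPKM in DMSO and 11.8 and 10.9 RPKM with G007-LK, with overlapping groups. PRC1 measured 73.0 and 83.0 against 36.1 and 33.4 RPKM in ABC-1, 54.4 and 55.9 against 29.8 and 21.2 RPKM in UO-31, 67.6 and 66.4 against 50.9 and 50.4 RPKM in OVCAR-4, 33.4 and 38.2 against 35.5 and 33.1 RPKM in COLO 320DM, and 36.8 and 38.5 against 36.8 and 33.8 RPKM in RKO.

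Among the spindle proteins, TPX2, which activates AURKA on the spindle, fell in UO-31 (111 and 111 against 58.7 and 46.5 RPKM), ABC-1 (67.3 and 76.4 against 34.6 and 33.7 RPKM) and OVCAR-4 (250.2 and 254 against 192 and 194 RPKM). It was just called in RKO, from 98.3 and 98.3 to 92.0 and 92.1 RPKM (adjusted p = 0.047 by limma), and its groups overlapped in COLO 320DM (80.2 and 95.6 against 86.5 and 80.2 RPKM). HMMR, a spindle assembly factor, fell in UO-31 from 31.5 and 33.5 to 20.2 and 14.1 RPKM, in OVCAR-4 from 81.3 and 81.9 to 59.8 and 56.7 RPKM and in ABC-1 from 12.7 and 15.1 to 7.07 and 7.09 RPKM. Its values in COLO 320DM were 11.5 and 14.1 against 13.3 and 11.7 RPKM. RKO had 1.75 and 2.21 against 1.73 and 1.65 RPKM, near the level at which genes were no longer tested. TACC3, a partner of AURKA, was the only gene of this group called in COLO 320DM, with a log2 change of -0.30.

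Chromosomes are untangled by TOP2A, condensed by NCAPG and NCAPH of condensin, and held together with the help of CDCA5 (sororin). TOP2A measured 52.2 and 64.6 against 27.2 and 24.6 RPKM in ABC-1, 49.0 and 48.1 against 29.3 and 18.1 RPKM in UO-31, and 118 and 125 against 84.8 and 84.0 RPKM in OVCAR-4, and was called in each. In COLO 320DM the 2 controls alone spanned 58.9 to 77.7 RPKM and the treated libraries 61.9 to 70.5 RPKM. In RKO it read 37.3 and 35.9 against 34.3 and 33.9 RPKM, not called. NCAPG fell in ABC-1 from 34.5 and 39.8 to 14.6 and 13.7 RPKM, in UO-31 from 19.1 and 18.4 to 10.0 and 6.69 RPKM and in OVCAR-4 from 23.2 and 23.6 to 16.8 and 16.1 RPKM. It was not called in COLO 320DM (16.1 and 20.6 against 16.1 and 14.5 RPKM) or RKO (17.5 and 17.1 against 16.7 and 16.6 RPKM). CDCA5 was called in COLO 320DM, with a log2 change of -0.32.

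MYBL2 and FOXM1 encode the transcription factors that act with MuvB on such promoters. MYBL2 fell in ABC-1 from 152 and 162 to 56.2 and 58.8 RPKM (log2 change -1.44 ± 0.07, SE), in UO-31 from 59.8 and 58.6 to 28.5 and 23.6 RPKM and in COLO 320DM from 72.4 and 76.5 to 53.9 and 54.1 RPKM, where it was the third largest fall. In OVCAR-4, where it was abundant, it measured 456 and 459 against 416 and 423 RPKM, the smallest fall of the 57 (-0.12 ± 0.03, SE), a call lost without DMSO replicate 2, and after rescaling the change was -0.01 and not called. RKO gave 33.4 and 34.1 against 34.4 and 30.9 RPKM. FOXM1 fell in ABC-1 from 40.1 and 45.2 to 21.2 and 20.9 RPKM, in UO-31 from 43.7 and 43.9 to 29.2 and 22.1 RPKM and in OVCAR-4 from 65.3 and 66.6 to 55.2 and 57.6 RPKM. It was not called in COLO 320DM (52.3 and 58.0 against 53.7 and 49.9 RPKM) or in RKO (39.5 and 39.5 against 37.5 and 39.0 RPKM).

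When the 4 sensitive lines entered 1 fit, blocked by line, all 57 genes fell, where 33.8% of the 9384 genes tested did. The median log2 change was -0.64 (all genes -0.09), with MAD2L1, CCNA2 and KIF23 at the most negative end and BUB3, NEK2 and KIF18A at the least. The largest adjusted p of the 57 was 0.0049. Without COLO 320DM, UO-31 or OVCAR-4 the count stayed at 57, and without ABC-1 it was 56. The fit assumes 1 common change, which the lines did not have. In a test of whether the change differs among the 5 lines, 57 of 57 genes passed, where 38.7% of 8970 genes did. This fit also assumes an equal spread in all lines.

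Against RKO, the change was more negative in ABC-1 for 57 of the 57 genes (37.4% of all genes tested), in UO-31 for 46 (4.2% of all genes), in OVCAR-4 for 52 (30.6% of all genes) and in COLO 320DM for 6 (6.85% of all genes). These 4 comparisons share the RKO libraries. Each fit assumes an equal spread in the line and in RKO, so the SE of a difference can lie below that of the line's own change. For BIRC5 in COLO 320DM the SE was 0.081 for the difference from RKO and 0.087 for the change itself. The counts should be read with that limit. Differences from RKO in log2 change had medians of -0.97 in ABC-1, -0.27 in OVCAR-4, -0.94 in UO-31 and -0.04 in COLO 320DM. The 6 genes in COLO 320DM were BIRC5 (-0.48), AURKB (-0.43), SPC25 (-0.42), MAD2L1 (-0.41), MYBL2 (-0.41) and PTTG1 (-0.28). The 11 genes without a call in UO-31 were BUB3, TTK, CENPE, CENPF, KIF11, KIF14, KIF18A, KIF20B, ECT2, HMMR and ASPM, whose differences ran from -0.90 to -0.34. After rescaling, the change was more negative than in RKO for 57 genes in ABC-1 (26.2% of all genes), 57 genes in UO-31 (12.2% of all genes), 27 in OVCAR-4 (13.5% of all genes) and 13 in COLO 320DM (16.1% of all genes), where NUF2 was less negative (0.21). The count for UO-31 was 12 and 10 without its DMSO replicate 1 or 2, 14 or 15 without any 1 RKO library, and 57 without either of its G007-LK libraries. For COLO 320DM it was 1 or 2 without any 1 RKO library, 19 without its DMSO replicate 1, and 5 or 2 when its first or second G007-LK library was left out. Without COLO 320DM DMSO replicate 2, 14 genes were called less negative than in RKO and 9 more negative.

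**Figure D3:**
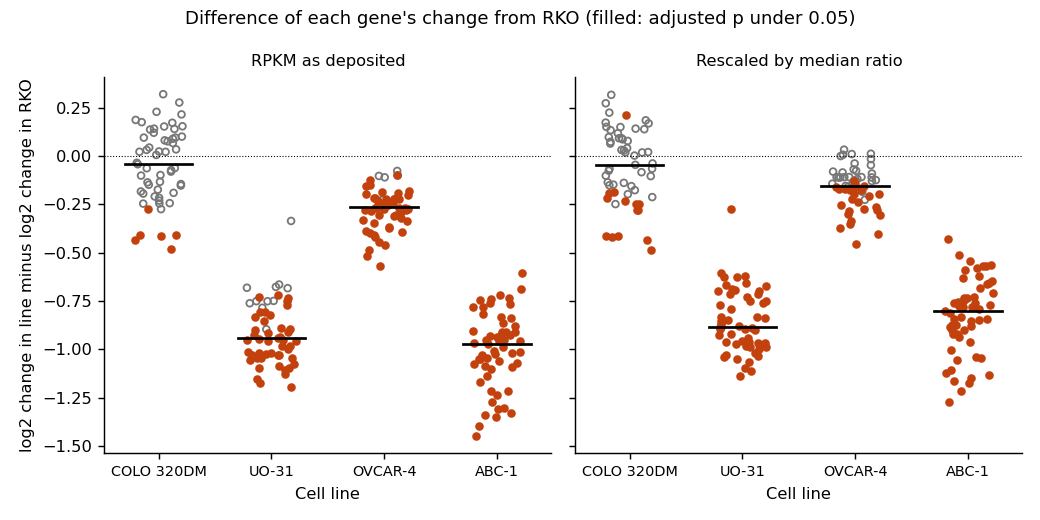
Difference of log2 change between each sensitive line and RKO (y axis) for each of the 57 genes, with RPKM as deposited (left) and after median ratio rescaling (right). Filled points have an adjusted p under 0.05 and lines mark medians, which are -0.97 in ABC-1 and -0.04 in COLO 320DM as deposited. Points are spread sideways only to be seen.

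In several groups, the replicates differed in a way that went with transcript length. Length here is that of the canonical transcript in GENCODE, which may not be the length the authors divided by. Across the 57 genes in COLO 320DM, Spearman's rho between length and DMSO replicate 2 minus replicate 1 was 0.72, and over all 10135 tested genes with a length it was 0.57. The long genes (over the median of 2881 bases) were 0.30 log2 units higher in replicate 2 at the median, and the short ones 0.10. Between the G007-LK replicates of COLO 320DM rho was -0.47 over the 57 genes and -0.38 over all genes. In ABC-1 it was 0.57 between the DMSO replicates and -0.46 between the G007-LK replicates (all genes 0.45 and -0.44). Between the G007-LK replicates of UO-31, rho was -0.69, with long genes at -0.49 and short ones at -0.27. Of the 11 genes called in COLO 320DM, 1 (MAD2L1) was longer than the median. The median length was 2160 bases for those called and 3100.5 bases for those not called. When the trend with length was taken out of each library, 22 genes fell in COLO 320DM, 57 in UO-31, 56 in OVCAR-4, 57 in ABC-1 and 9 in RKO, an alternative chosen after seeing the data. In OVCAR-4 the change itself went with length, with rho -0.59 over the 57 genes and -0.29 over all genes, and medians of -0.40 for long and -0.31 for short genes. In COLO 320DM the sign was opposite, with rho 0.38 over the 57 genes and 0.17 over all genes, and medians of -0.05 for long and -0.20 for short genes. The part of length in these results was not tested further. Genes are not independent replicates, so these correlations are descriptions.

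**Figure D4:**
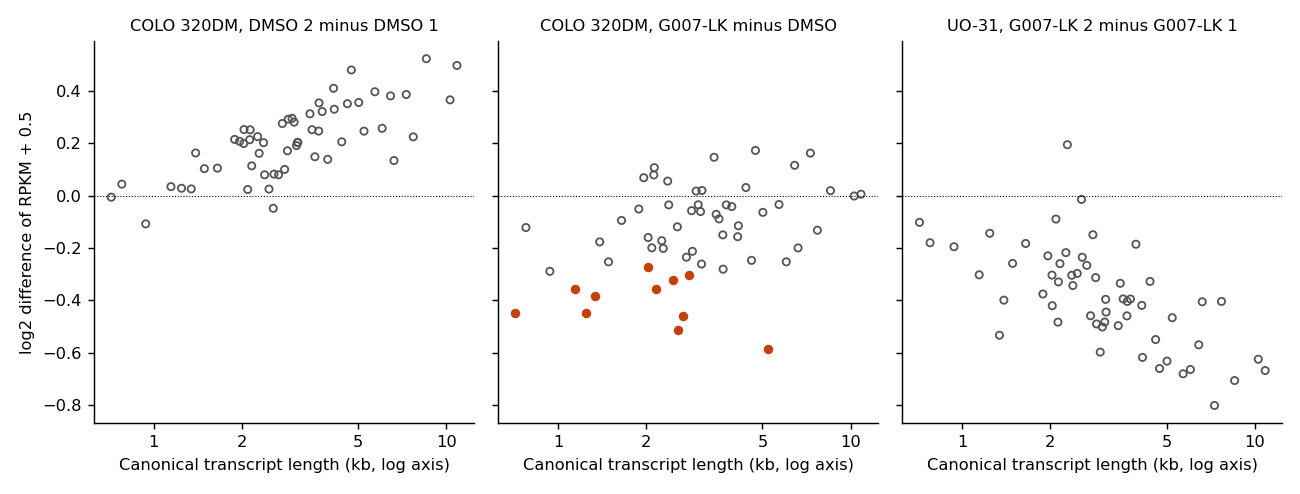
Canonical transcript length (x axis, log scale) against log2 differences of RPKM + 0.5 (y axis) for the 57 genes, between the DMSO replicates of COLO 320DM (left), between G007-LK and DMSO in COLO 320DM (middle, filled where called) and between the G007-LK replicates of UO-31 (right). The replicate differences widen with length (rho 0.72 and -0.69), and 10 of the 11 filled points are at or below the median length.

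In DMSO alone, OVCAR-4 had the highest levels, with a median of 82.7 RPKM over the 57 genes against 42.6 in ABC-1, 34.0 in UO-31, 33.7 in RKO and 28.0 in COLO 320DM. The RPKM of a library summed to 367196 to 909187, with OVCAR-4 at the top, so each count is given on both scales. As deposited, 56 of 57 genes were higher in OVCAR-4 than in the mean of the other lines (75% of 14101 genes were), with a median of 1.37 log2 units. After rescaling 39 were higher and 8 lower (43.4% and 44.5% of all genes), with a median of 0.45. In RKO 8 genes were higher and 41 lower as deposited (23.5% and 61.1% of all genes), and 21 and 26 after rescaling (38.3% and 49.3%), with medians of -0.39 and -0.07. In COLO 320DM 7 were higher and 41 lower as deposited (29.6% and 55%), with a median of -0.49, and 16 higher and 32 lower after rescaling (40.7% and 46.6%), with a median of -0.25. In UO-31 4 were higher and 40 lower (37.4% and 46.6%), with a median of -0.40, and 11 and 38 after rescaling (43% and 43.4%), with a median of -0.29. In ABC-1 the direction of the median turned with the scaling, from -0.09 as deposited (15 higher and 27 lower, 29% and 56.8% of all genes) to 0.18 after rescaling (31 higher and 19 lower, 40.1% and 46.8%). For 13 pairs of gene and line a call turned from one direction to the other with rescaling, 7 in OVCAR-4 (among them CCNA2, from 0.77 to -0.17), 5 in RKO and 1 in ABC-1 (NUF2). ANLN was at 10.2 RPKM in COLO 320DM against 50.6 to 247 RPKM in the other lines (rescaled difference -3.31 log2 units). HMMR was at 1.98 RPKM in RKO against 12.8 to 81.6 RPKM elsewhere (rescaled difference -3.16). UBE2S was the most abundant of the 57 in every line, at 193 RPKM in UO-31 and 1389 RPKM in OVCAR-4.

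**Figure D5:**
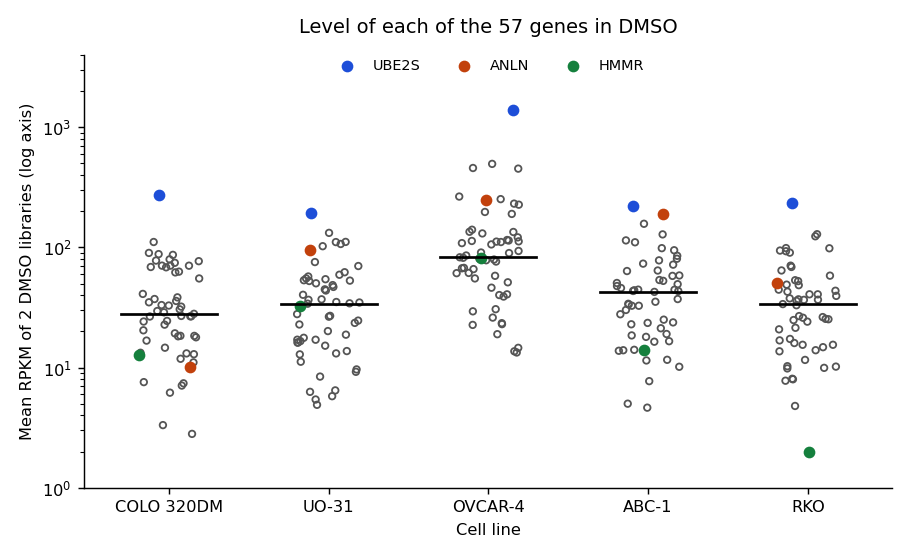
Mean RPKM of the 2 DMSO libraries (y axis, log scale) for each of the 57 genes in each line (x axis), with lines at the medians. UBE2S is the highest in every line, ANLN is low in COLO 320DM (10.2 RPKM) and HMMR is low in RKO (1.98 RPKM).

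Other genes of cell division were also lower in ABC-1, UO-31 and OVCAR-4, and many DNA replication genes were lower in COLO 320DM as well. Of 70 further mitosis genes, 67 fell in ABC-1, 53 in UO-31, 60 in OVCAR-4, 11 in COLO 320DM and 7 in RKO, with medians of -1.01, -0.77, -0.35, -0.11 and -0.07. In COLO 320DM 2 of them rose, CENPL (log2 change 0.57) and CKAP2L (0.48), and in OVCAR-4 1 rose, CENPW (0.23). PBK, a mitotic kinase, had the largest fall of that list in UO-31, at -1.26. Of 46 DNA replication genes, 46 fell in ABC-1, 44 in UO-31, 43 in OVCAR-4, 26 in COLO 320DM and 3 in RKO, and none was called higher on the deposited scale. Their medians were -1.23, -0.81, -0.33, -0.37 and -0.05. Of all genes tested, 41.2% were called lower in ABC-1, 8.63% in UO-31, 39% in OVCAR-4, 11.6% in COLO 320DM and 2.75% in RKO. In COLO 320DM the median of the replication genes was thus -0.37 and that of the 57 mitosis genes -0.12, and the difference between the lists was not tested. After rescaling, the further mitosis genes that fell numbered 65 in ABC-1, 59 in UO-31, 52 in OVCAR-4, 19 in COLO 320DM and 2 in RKO, with 2 higher in ABC-1, 1 in UO-31, 2 in OVCAR-4 and 2 in COLO 320DM. The replication genes that fell then numbered 46 in ABC-1, 46 in UO-31, 37 in OVCAR-4, 32 in COLO 320DM and 2 in RKO, with 2 higher in OVCAR-4 and 1 in COLO 320DM. The rescaled shares of all genes called lower were 32.4% in ABC-1, 15.5% in UO-31, 23% in OVCAR-4, 20.2% in COLO 320DM and 1.06% in RKO. GINS2, of the replicative helicase, and ORC6, of the origin recognition complex, led the replication list in COLO 320DM, as deposited, at -0.64 and -0.62.

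Another list held 13 genes of the MuvB core, DREAM and their regulators, of which 12 or 13 were tested in a line. In ABC-1 8 fell and 2 rose, in OVCAR-4 9 fell and 2 rose, in UO-31 2 fell, in COLO 320DM 1 fell and 1 rose, and in RKO none was called. Over all genes, as deposited, ABC-1 had 4498 lower and 1816 higher of 10910, and OVCAR-4 had 4841 and 1564 of 12425. UO-31 had 1023 lower and 568 higher of 11851. For COLO 320DM the numbers were 1310 and 868 of 11279, and for RKO 289 and 143 of 10518. Whether the calls of this short list differ from those shares was not tested. CDKN1A encodes the CDK inhibitor p21, which keeps DREAM assembled. It rose in ABC-1 from a mean of 11.8 to 26.2 RPKM (log2 change 1.11) and in OVCAR-4 from 215 to 267 RPKM (0.31). It was not called in UO-31 (243 and 261 RPKM) or RKO (74.1 and 77.2 RPKM) and was under the filter in COLO 320DM. LIN37, a MuvB subunit needed for repression, rose in ABC-1 (0.40) and OVCAR-4 (0.24), while LIN9 (-0.74 and -0.30), LIN52 (-0.82 and -0.29) and LIN54 (-0.71 and -0.42) fell in both. TFDP1 (-0.90 and -0.41), E2F5 (-0.69 and -0.41), E2F4 (-0.39 and -0.38) and RBBP4 (-0.39 and -0.18) fell in both as well. TFDP1 was also the fall in COLO 320DM (-0.31), and MYBL1 the rise there (0.80). That rise was from a mean of 1.84 to 3.54 RPKM, near the filter of 1 RPKM. MYBL1 fell in UO-31 (-0.93) and OVCAR-4 (-0.52). RBL2, which encodes the pocket protein p130 of DREAM, was not called in any line, and RBL1 (p107) fell in ABC-1 (-0.72), OVCAR-4 (-0.68) and UO-31 (-0.68). After rescaling, 8 fell and 2 rose in ABC-1, 8 fell and 2 rose in OVCAR-4, 4 fell and 1 rose in UO-31, and 2 fell and 2 rose in COLO 320DM. Calls over all genes in either direction were then 6956 of 10910 in ABC-1 and 5845 of 12425 in OVCAR-4. They were 3564 of 11851 in UO-31 and 4351 of 11279 in COLO 320DM.

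The labelled tissues were checked against marker genes. COLO 320DM held CDX2 at 516 to 763 RPKM, KRT20 at 3.44 to 6.24 RPKM and CDH17 at 3.90 to 4.73 RPKM, but VIL1 and CDX1 were at most 0.072 RPKM, and RKO held CDX2 at 6.88 to 7.43 RPKM and no other colon marker above 1 RPKM. The number of kidney and ovary markers that reached 1 RPKM did not separate UO-31 from OVCAR-4, while some single markers did. In UO-31, 4 of 5 kidney and 3 of 5 ovary markers reached 1 RPKM, and in OVCAR-4, 4 of 5 of either list. The kidney marker PAX2 was at 6.36 to 8.84 RPKM in UO-31 and at most 0.058 RPKM in OVCAR-4. The ovary marker MUC16 was at most 0.0057 RPKM in UO-31 and at 7.27 to 12.7 RPKM in OVCAR-4. SOX17, also of the ovary list, was at 10.1 to 11.5 RPKM in UO-31 and 154 to 195 RPKM in OVCAR-4. PAX8, in both lists, was at 63.9 to 83.7 RPKM in UO-31 and 81.2 to 89.5 RPKM in OVCAR-4, and the kidney marker CDH6 was at 4.53 to 9.07 RPKM in UO-31 and 62.7 to 99.3 RPKM in OVCAR-4. The ovary marker WT1 was at most 0.138 RPKM in OVCAR-4, and MSLN was at 4.36 to 5.84 RPKM there and 133 to 175 RPKM in ABC-1. All 4 lung markers of the table, the surfactant genes SFTPB and SFTPC, SFTA3 and NAPSA, were at most 0.276 RPKM in ABC-1, with NAPSA the highest at 0.119 to 0.276 RPKM. Of 8 blood, endothelial and fibroblast markers, 0 to 3 reached 1 RPKM in a line, the highest being COL1A1 in UO-31 at 84.9 to 119.9 RPKM. PTPRC was at 2.68 to 4.05 RPKM in COLO 320DM and CDH5 at 5.00 to 6.66 RPKM in UO-31. Of 5 epithelial markers, 5 reached 1 RPKM in OVCAR-4 and ABC-1, 4 in UO-31 and COLO 320DM and 3 in RKO. EPCAM was only at 1.10 to 1.40 RPKM in COLO 320DM, and CDH1 was at most 0.362 RPKM there and 0.104 RPKM in RKO.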

How the data were processed

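RNA from 5 lines with G007-LK or DMSO for 24 h was enriched on oligo(dT) beads and sequenced on an Illumina HiSeq. The authors aligned reads to the hg19 reference genes with SOAPaligner/SOAP2, allowing 2 mismatches, and the deposited values are RPKM per gene and library, with no counts. The versions of the aligner and of NOISeq are not stated. The authors' tables of fold changes and NOISeq scores were not used.

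Missing values were set to 0. The table has 21610 entries, and the 8 that lack a symbol were dropped (together 0.00134% of summed RPKM or less), and entries sharing 1 of 371 symbols were joined. From the spacing of the smallest values, libraries held 0.855 to 1.11 times the reads of DMSO replicate 1 of their line.

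All fits used log2(RPKM + 0.5) and limma 3.58.1 (statmod 1.5.0, R 4.3.3) with trend and robust estimation, two-sided, over genes whose mean reached 1 RPKM in the line or lines of a fit (for DMSO levels, in any line). Each line has 2 residual degrees of freedom per gene, so SE and p lean on the spread of all genes of a line (wholly so in UO-31 and ABC-1, where the prior was given infinite weight), and very small p-values should be read as that. The sensitive lines were fitted with the line as a block, and differences from RKO as an interaction over 8 libraries. DMSO levels compared each line with the mean of the others over 10 libraries. NOISeq, the study's test, gives no p and was replaced by limma. The fits were also run on simulated data with independent noise for each gene. Such data lack the replicate differences that went with length, so they do not show how those affect the p-values. The replicates are called biological replicates, with nothing on separate cultures, so p-values measure the spread between these libraries, which may be technical.

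No label says whether replicate numbers pair the libraries. Correlations of the deviations of replicate 1 between treatments were -0.25 in COLO 320DM and ABC-1, -0.02 in UO-31, 0.01 in OVCAR-4 and 0.06 in RKO. These values cannot exclude pairing. In COLO 320DM and ABC-1 the replicate differences went with transcript length, with opposite signs in DMSO and G007-LK.

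The members, gene lists and tests were chosen with earlier results of these data known. Genes given with values in each line are 21 fixed symbols across the roles. The 3 largest called falls of each line are also given, some of them with values in only some lines. Other genes are named to spell out a count or a group, or for an extreme value. Gene positions are from GENCODE v44 lifted to GRCh37, and promoters from RefSeq on GRCh38.p14, for 48 of 57 genes. Alternatives were pseudocounts of 0.1 and 1, no filter, a mean of at least 5 RPKM, median ratio rescaling, a replicate block, 1 fit over 20 libraries, and leaving out each library or line. A crossed replicate block and removal of a length trend were added after seeing the data. Python 3.11.15 with pandas and matplotlib made tables and figures.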

Additional observations from a re-analysis of the deposited data

Results flagged for a closer look

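The change with G007-LK differed from that in RKO, by a test of the difference itself (limma, the interaction of treatment and line), for 57 of the 57 genes in ABC-1, 52 in OVCAR-4, 46 in UO-31 and 6 in COLO 320DM. The gene with the largest difference in log2 change was KIF23 in ABC-1 (-1.45), CCNA2 in OVCAR-4 (-0.57), ESPL1 in UO-31 (-1.19) and BIRC5 in COLO 320DM (-0.48). All 4 comparisons use the same RKO libraries and assume an equal spread in the line and in RKO. Across the 5 lines together, the change differed for 57 of the 57 genes, with UBE2S at the top and CENPF at the bottom (adjusted p = 1.2e-09 and 0.02 by limma). With groups of 2 libraries, single libraries that stand apart were not tested.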

How the results depend on the processing

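Over 45 counts and medians and 609 alternative values, 524 stayed near the main value and 85 moved. Among DMSO levels of single genes, 13 calls turned direction with rescaling, and the ABC-1 median changed sign. The causes were not tested. With the replicate block 5 genes fell in COLO 320DM, 5 in RKO, and 1 was more negative in COLO 320DM than in RKO, and the block moved no other count by over 1.5 times. In the crossed pairing, added after seeing the data for COLO 320DM and ABC-1, 25 and 57 genes fell. Without a filter 6 fell in COLO 320DM and 3 in RKO, and in 1 fit over 20 libraries 0 fell in RKO, whose own fit had 36 genes at an unadjusted p under 0.05. After rescaling 19 fell in COLO 320DM, and medians were -0.24 in OVCAR-4, -0.92 in ABC-1 and -0.0699 in RKO. With the length trend removed, also added after seeing the data, 22 fell in COLO 320DM, and medians were -0.27, -0.91 and -0.0699 in the same 3 lines.

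Against RKO, rescaling gave 13 more negative and 1 less negative in COLO 320DM, 27 in OVCAR-4 (median -0.16), and a median of -0.80 in ABC-1. At a mean of at least 5 RPKM the OVCAR-4 median was -0.26. For DMSO levels, rescaling gave 16 higher in COLO 320DM (median -0.25), 11 in UO-31 (-0.29), 31 in ABC-1 (0.18) and 21 higher and 26 lower in RKO (-0.0724), with 8 lower in OVCAR-4 (0.45). With a pseudocount of 1 the medians were 1.35 in OVCAR-4 and -0.37 in RKO.

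Leaving out 1 library gave 1 to 22 lower and 0 to 1 higher in COLO 320DM (median -0.24 to -0.03), 5 to 57 lower in UO-31 (-1.21 to -0.85), 54 to 57 in OVCAR-4 (-0.37 to -0.34), 57 in ABC-1 (-1.14 to -1.01), 3 to 5 in RKO (-0.0945 to -0.0843), 57 over the sensitive lines (-0.71 to -0.58) and 56 to 57 among the 5 lines. Against RKO it gave 1 to 19 lower and 0 to 14 higher in COLO 320DM (-0.13 to 0.06), 10 to 57 in UO-31 (-1.11 to -0.74), 43 to 51 in OVCAR-4 (-0.28 to -0.25) and 57 in ABC-1 (-1.07 to -0.90). For DMSO levels it gave 5 to 10 higher and 39 to 44 lower in COLO 320DM (-0.60 to -0.36), 4 to 7 and 36 to 44 in UO-31 (-0.43 to -0.38), 56 to 57 higher in OVCAR-4 (1.35 to 1.40), 14 to 18 and 24 to 28 in ABC-1 (-0.20 to 0.0057), and 6 to 11 and 36 to 43 in RKO (-0.40 to -0.35). A lone library is assumed to vary like the other groups. The unknown depth and 2 libraries a group limit how small a change could be called.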
